A study of Mus musculus with 12 samples.

Results

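The genes described here encode the pyruvate dehydrogenase (PDH) complex, enzymes of the tricarboxylic acid (TCA) cycle, the enzymes shared with the malate-aspartate shuttle, and the breakdown of the branched-chain amino acids (BCAAs) leucine, isoleucine and valine. The 35 genes were taken by name from the 20775 genes listed in each of the 2 deposited tables of RPKM (read density corrected for gene length and library size), and all 35 were present in both. Their level was compared between Med30 knockout and Ctrl samples within each table. Med30 is a subunit of the Mediator complex, which links transcription factors to RNA polymerase II.

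RNA-seq was performed on hearts of mouse embryos at E10.5 and on adult cardiomyocytes 4 weeks post-TAM (tamoxifen), with 3 samples in each of 4 groups. The E10.5 cKO hearts were Tnnt-Cre+ and Med30 f/f, with the floxed exon 1 removed under the cardiac Troponin T promoter, and the E10.5 Ctrl hearts were Cre-negative littermates with the same floxed alleles, which the labels call wild type. The icKO samples were cardiomyocytes isolated by enzyme perfusion from 3-month-old mice with Med30 f/f and the tamoxifen-inducible αMHC-MerCreMer, and their Ctrl mice were Med30 f/f without Cre and also received tamoxifen. All groups carried the floxed alleles of a single targeted embryonic stem cell clone, and the labels give C57BL/6 as the adult strain. No Ctrl group carried Cre, so in these RNA data an effect of Cre cannot be told apart from that of Med30. The paper reports that αMHC-MerCreMer mice without a floxed allele showed no deaths or cardiac dysfunction after tamoxifen. RNA of such mice is not among the samples. Whether embryonic hearts were pooled was not stated.

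Pyruvate enters the TCA cycle through the PDH complex, which makes acetyl-CoA and is switched off by the PDH kinases and on by the PDH phosphatases. BCAAs are first transaminated, then committed to breakdown by the branched-chain ketoacid dehydrogenase (BCKDH) complex, which is built like PDH and is likewise held in check by a kinase (Bckdk) and released by a phosphatase (Ppm1k). The carbon ends as acetyl-CoA, acetoacetate or succinyl-CoA, and the heart is known for a high capacity of all these mitochondrial steps.

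Depth, estimated from the spacing of low RPKM values, was about 12 to 20.09 M reads per library, so members with high RPKM rested on far more reads than those under 10. RPKM was brought to a common scale within each table by median-ratio size factors (hereafter scaled RPKM), because the 20 most abundant genes took 24.2 to 24.8% of summed RPKM in adult Ctrl and 10.7 to 12.2% in icKO. Over all genes tested at 4 weeks post-TAM the median log2 fold change was 0.57 as deposited and 0.04 with that scaling. Med30 itself was at 9.40, 13.6 and 11.04 scaled RPKM in E10.5 Ctrl and at 1.46, 2.17 and 0.9985 in cKO, and at 9.32, 8.94 and 9.21 in adult Ctrl and at 3.08, 2.62 and 1.56 in icKO. The knockout samples lay below every Ctrl sample at both stages, and Med30 fell by 2.85 at E10.5 (limma adjusted p = 0.00124) and by 1.93 at 4 weeks post-TAM (limma adjusted p = 6.77e-05) on the log2 scale.

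Promoter sequences were available for 32 of the 35 members, the exceptions being Idh3a, Dbt and Mut. They were searched on both strands for the extended estrogen-related receptor half-site TCAAGGTCA, for the shorter nuclear receptor half-site AAGGTCA, which the longer motif contains, and for GCGCATGC, a form of the nuclear respiratory factor 1 motif, because these motifs are known in genes of mitochondrial energy metabolism. TCAAGGTCA was found in 0 members and in 0.466% of all 27025 genes with a promoter. AAGGTCA was found in 2 members, Ogdh and Got1, against 5.38% of all genes, and GCGCATGC in 2 members, Ogdh and Pccb, against 3.05% of all genes. The windows held 250 bases before and 50 after each RefSeq start in GRCm38.p6, and a match is only a match of letters. The members with a match are shown 5′ to 3′ on the gene's strand with the matched letters in capitals. For Pccb (minus strand, chr9:101034899-101035134) and Got1 (minus strand, chr19:43524606-43524855) the bases before the annotated gene are given. For Ogdh (plus strand), which has several starts, only 30 bases around each match are given, at chr11:6292154-6292183 for AAGGTCA (there read on the opposite strand) and at chr11:6292532-6292561 for GCGCATGC.
Pccb: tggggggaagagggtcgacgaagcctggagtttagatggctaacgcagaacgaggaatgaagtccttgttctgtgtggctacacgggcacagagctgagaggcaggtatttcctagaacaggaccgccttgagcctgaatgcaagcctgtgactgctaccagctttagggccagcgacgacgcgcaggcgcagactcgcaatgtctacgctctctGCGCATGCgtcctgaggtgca
Got1: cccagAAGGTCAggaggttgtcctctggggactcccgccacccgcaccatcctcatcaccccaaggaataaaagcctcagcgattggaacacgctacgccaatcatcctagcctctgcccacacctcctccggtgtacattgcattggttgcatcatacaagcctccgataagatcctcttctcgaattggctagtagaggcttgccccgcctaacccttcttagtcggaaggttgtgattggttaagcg
Ogdh, AAGGTCA: ggacacggcgcTGACCTTggtgcctgcggc
Ogdh, GCGCATGC: ctaggtgttgtGCGCATGCgtaactcaact

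In E10.5 hearts, knockout of Med30 was accompanied by small differences in these genes, and 1 of the 35 members passed the test. Got2, the mitochondrial aspartate aminotransferase of the malate-aspartate shuttle (chr8:95864134-95888547), was at 36.8, 30.8 and 34.8 scaled RPKM in Ctrl and at 26.8, 24.4 and 24.8 in cKO. All 3 cKO hearts lay below all 3 Ctrl hearts, and Got2 fell by 0.43 on the log2 scale (SE 0.0935, limma adjusted p = 0.0367). That call was lost when any 1 of the 6 hearts was left out, with adjusted p from 0.0522 to 0.128 and log2 fold changes from -0.50 to -0.37 (limma). Exons of Got2 overlap the annotated gene Gm45760 on the opposite strand.

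The other 34 members did not pass the adjusted threshold of 0.05 at E10.5. Of all 35, 32 had a log2 fold change under 0, with a median of -0.24 against -0.01 for all 10885 genes tested, 14 had an unadjusted p under 0.05 on the lower side and 0 on the higher side. Of all genes tested, 51.8% were below 0, and 12% were lower and 11.4% higher at that unadjusted threshold. Across all genes, 2.6% were called lower and 2.45% higher (283 and 267 genes, and 376 and 94 with RPKM as deposited). In 14 of 35 members every cKO heart lay below every Ctrl heart, which held for 14.4% of all genes. In 0 members did every cKO heart lie above, which held for 1643 of the 10885 genes tested. The largest of these log2 fold changes belonged to Mccc2 (-0.61, SE 0.192, limma adjusted p = 0.103), a subunit of methylcrotonyl-CoA carboxylase in leucine breakdown, Hibch (-0.49, SE 0.144, limma adjusted p = 0.0846), the hydrolase of 3-hydroxyisobutyryl-CoA in valine breakdown, and Bckdhb (-0.48, SE 0.156, limma adjusted p = 0.112). Other energy genes lay mostly under 0 at E10.5 as well, so this was not particular to the members. It held for 17 of 17 glycolysis genes (median -0.26), 14 of 16 fatty acid oxidation genes (median -0.15) and 27 of 36 complex I subunits (median -0.14).

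The embryonic samples were whole hearts, and in bulk samples fewer cells of a type and less RNA per cell cannot be told apart. The 10 cardiomyocyte markers summed to 5204 to 7137 scaled RPKM in Ctrl and to 3678 to 4514 in cKO, without overlap. Singly they were mixed, with 2 called lower, 0 higher and 8 not called. Of the 10, 6 had a log2 fold change under 0, and the values ran from -1.35 for Myh7 to 0.29 for Ttn. The 6 erythroid markers ranged from 321 to 951 in Ctrl and from 519 to 3022 in cKO, and the 6 endothelial markers from 110 to 138 and from 142 to 149. The 8 fibroblast markers summed to 92.2 to 148 in Ctrl and to 124 to 132 in cKO, the 5 mural markers to 11.4 to 13.1 and to 16.1 to 17.3, and the 6 macrophage markers, of which Cd14 was at 0 in every heart, to 8.66 to 10.01 and to 5.18 to 6.72. The endothelial, mural and macrophage sums did not overlap between the groups either. The part of these differences in the values of the members was not tested.

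The adult Ctrl cardiomyocytes held more of every member than the E10.5 Ctrl hearts on the scale of the deposited RPKM. The ratio of the group means ranged from 1.65 for Dbt to 13.4 for Bckdha, with a median of 3.74. The tables were normalised separately and hold whole hearts at the first stage and isolated cardiomyocytes at the second, so no test was made.

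In adult cardiomyocytes 4 weeks post-TAM the whole set was lower in icKO. Of the 35 members, 34 fell and 0 rose at a limma adjusted p under 0.05 (0 higher, at an unadjusted p under 0.05), with a median log2 fold change of -1.05, where 33.5% of the 9517 genes tested were called lower, 34.7% higher and the median was 0.04. In 34 members every icKO sample lay below every Ctrl sample, as in 35.8% of all genes. In 19 members the log2 fold change was also under -1, as in 15.5% of all genes. The members together made up 2.59 to 2.68% of summed RPKM in Ctrl and 1.63 to 1.8% in icKO. Like the deposited RPKM, such a share depends on how much the most abundant genes take up. At E10.5 this share was 0.758 to 0.811% in Ctrl and 0.732 to 0.764% in cKO, and the groups overlapped.

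**Figure D1:**
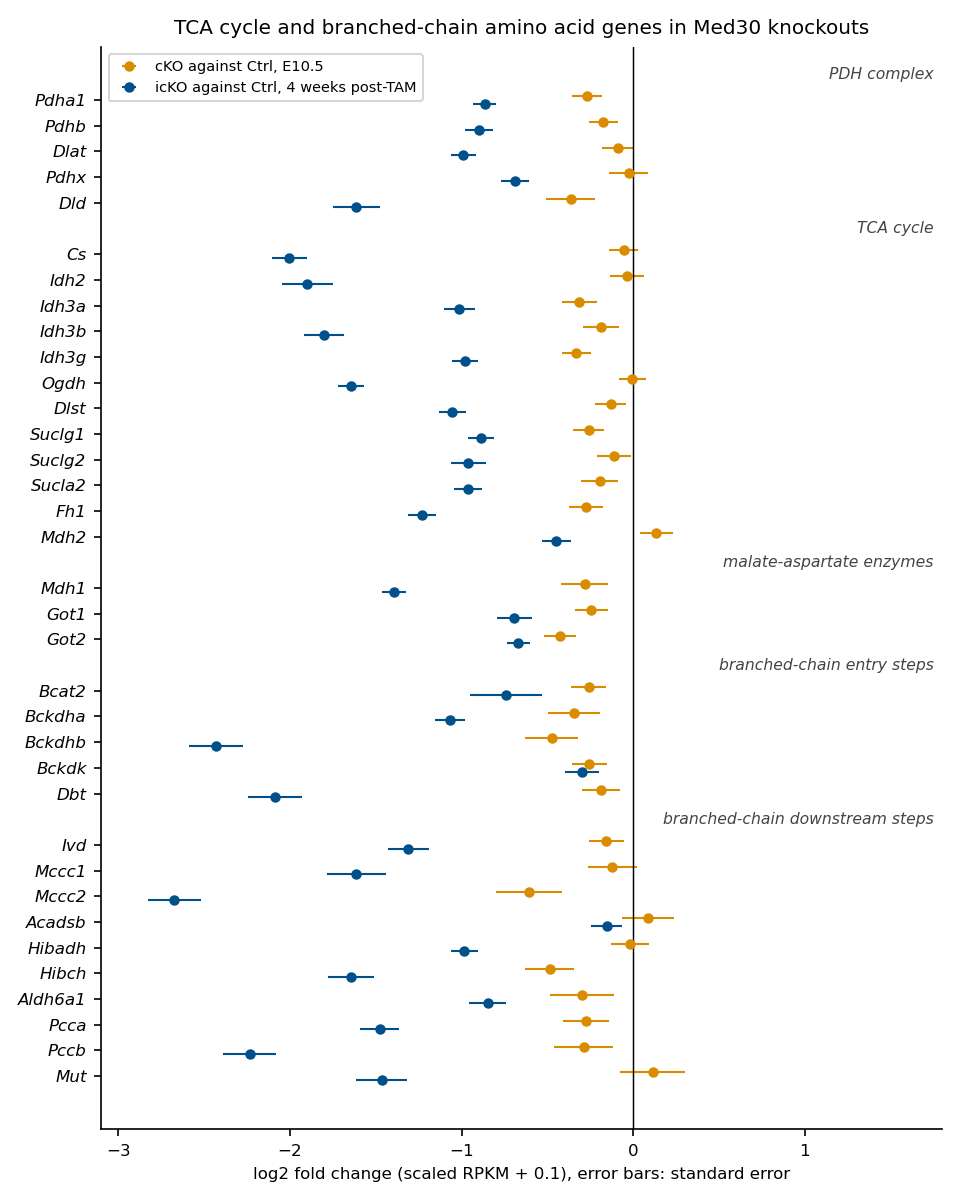
Log2 fold change of each of the 35 members (x axis, scaled RPKM + 0.1) with its standard error, for cKO against Ctrl hearts at E10.5 (orange) and icKO against Ctrl cardiomyocytes 4 weeks post-TAM (blue), 3 samples per group, ordered by step. At E10.5 the values lie between -0.61 and 0.14, and at 4 weeks post-TAM between -2.68 and -0.15.

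With RPKM as deposited, 28 members fell and 2 rose at 4 weeks post-TAM, against 18.1% of all genes called lower and 60.6% higher (1727 and 5765 genes, where scaling gave 3186 and 3299). Dividing RPKM by its sum over all but the 20 most abundant genes, in place of size factors, gave 2253 and 4756. The median of the members was -0.51 as deposited. It lay 1.08 below the median of all genes, and 1.09 below it with scaling.

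The isolated cells differed in markers as well. The 10 cardiomyocyte markers summed to 23244 to 24230 scaled RPKM in Ctrl and to 5836 to 7520 in icKO, with 7 lower, 1 higher and 2 not called. The 8 fibroblast markers summed to 6.12 to 10.1 in Ctrl and to 49.99 to 70.8 in icKO, with 4 of the 5 tested higher. Endothelial markers summed to 10.04 to 23.1 and 18.1 to 27.8, mural markers to 7.08 to 18.1 and 15.4 to 31.1, macrophage markers to 2.22 to 3.72 and 3.37 to 5.77, and erythroid markers to 1.43 to 6.70 and 2.96 to 7.28. No marker of these lists was at 0 in all 6 adult samples. What part the non-cardiomyocyte markers had in the values below was not tested.

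All 5 PDH genes fell at 4 weeks post-TAM, Dld the most. Pdha1, the catalytic alpha subunit of the decarboxylase, was at 394, 376 and 374 scaled RPKM in Ctrl and at 207, 208 and 213 in icKO, a log2 fold change of -0.86 (SE 0.0669, limma adjusted p = 8.30e-06). The icKO samples lay below the Ctrl samples with little spread, but the size of the difference depended on the scaling: the log2 fold change was -0.32 as deposited (limma adjusted p = 0.00148) and -0.08 after quantile normalization, where it did not pass (limma adjusted p = 0.257). Pdhb, its beta partner, was at 288, 257 and 252 in Ctrl and at 136, 139 and 152 in icKO (log2 fold change -0.90, SE 0.0824), and Dlat, the acetyltransferase core, at 106, 97.8 and 101 in Ctrl and at 48.2, 52.2 and 53.2 in icKO (-0.99, SE 0.0738). Pdhx, which anchors Dld to the core, was at 48.4, 40.9 and 44.3 in Ctrl and at 27.5, 27.1 and 28.1 in icKO (-0.69, SE 0.0815). No group of these 3 genes overlapped, but as deposited Pdhx had a log2 fold change of -0.15 and no longer passed (limma adjusted p = 0.122). Dld, the dihydrolipoamide dehydrogenase that PDH shares with the 2-oxoglutarate and BCKDH complexes, was at 162, 144 and 147 in Ctrl and at 42.3, 45.6 and 61.7 in icKO, and fell by 1.61 (SE 0.136, limma adjusted p = 1.27e-05). In relation to Pdha1 within the same library, Dld was at 0.412, 0.383 and 0.392 in Ctrl and at 0.204, 0.219 and 0.290 in icKO, while Pdhb to Pdha1 was at 0.730, 0.684 and 0.672 in Ctrl and at 0.658, 0.665 and 0.712 in icKO. The first ratio separated the groups (exact two-sided permutation p = 0.1, the smallest that 3 against 3 samples can give) and the second did not (p = 0.5). All pairs compared as ratios here were chosen after their values were seen, so their p-values only describe these samples. Exons of Pdha1 overlap those of Map3k15 on the opposite strand.

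The genes that regulate PDH and bring pyruvate to it were also mostly lower in icKO. Of the 9 tested at 4 weeks post-TAM, 7 fell and 0 rose. Pdk4, the PDH kinase that rises when the heart burns fat, was at 478, 708 and 336 scaled RPKM in adult Ctrl and at 53.7, 93.1 and 52.3 in icKO, and fell by 2.92 (SE 0.291, limma adjusted p = 3.40e-05). Pdp2, a PDH phosphatase with the opposite action, was at 16.02, 15.1 and 14.02 in Ctrl and at 1.46, 0.915 and 1.56 in icKO, and fell by 3.45 (SE 0.183, limma adjusted p = 1.42e-06). The log2 fold changes of this kinase and this phosphatase were both lower than that of any PDH subunit. Pdk2, another PDH kinase, fell by 1.73 (SE 0.0888, limma adjusted p = 1.24e-06) and Pdp1, another PDH phosphatase, by 1.22 (SE 0.1, limma adjusted p = 1.12e-05). At E10.5, 1 of 10 genes of this list was called, where 2.6% of all genes were called lower and 2.45% higher. It was Pdk1, a further PDH kinase, at 23.5, 35.01 and 27.2 in Ctrl and at 19.1, 14.4 and 19.0 in cKO (log2 fold change -0.70, limma adjusted p = 0.0432, named after its value was seen). Pdk1 no longer passed when any heart but cKO replicate 3 was left out, with adjusted p of up to 0.123. It passed as deposited (limma adjusted p = 0.0275) but not after quantile normalization (limma adjusted p = 0.0522). Nor did it pass with RPKM divided by its sum outside the 20 most abundant genes (limma adjusted p = 0.0577).

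All 12 TCA cycle members fell in icKO, with log2 fold changes from -2.003 to -0.45. The 3 lowest were Cs, Idh2 and Idh3b. Cs, citrate synthase, the entry of acetyl-CoA into the cycle (chr10:128337734-128362479), was at 426, 450 and 450 scaled RPKM in Ctrl and at 95.0, 122 and 115 in icKO, and fell by 2.003 (SE 0.1, limma adjusted p = 1.18e-06). Idh2, the mitochondrial NADP-dependent isocitrate dehydrogenase, was at 814, 915 and 866 in Ctrl and at 183, 284 and 240 in icKO, and fell by 1.90 (SE 0.148, limma adjusted p = 8.56e-06). It was the most abundant member in adult Ctrl. Idh3b, the beta subunit of the NAD-dependent isocitrate dehydrogenase, was at 363, 374 and 349 in Ctrl and at 86.0, 111 and 116 in icKO, and fell by 1.802 (SE 0.115, limma adjusted p = 3.08e-06).

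In that NAD-dependent enzyme, the log2 fold changes of Idh3a and Idh3g were alike and that of Idh3b was lower. Idh3a, its catalytic subunit, was at 228, 196 and 203 in Ctrl and at 98.8, 98.9 and 113 in icKO, a log2 fold change of -1.01 (SE 0.0899, limma adjusted p = 1.72e-05), and Idh3g, its gamma subunit, had one of -0.98 (SE 0.0746). The ratio of Idh3b to Idh3a went from 1.59, 1.91 and 1.72 in Ctrl to 0.871, 1.13 and 1.03 in icKO without overlap (difference -0.79 on the log2 scale, exact two-sided permutation p = 0.1). The ratio of Idh3g to Idh3a was 1.23, 1.45 and 1.32 in Ctrl and 1.33, 1.5 and 1.26 in icKO, with overlap (difference 0.03, exact two-sided permutation p = 0.7). Exons of Idh3b overlap those of Nop56 on the opposite strand in GENCODE vM21, and since the strand setting of the counting was not stated, reads of the pair cannot be told apart.

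Ogdh, the decarboxylase of the 2-oxoglutarate dehydrogenase complex, was at 432, 425 and 431 scaled RPKM in Ctrl and at 127, 142 and 143 in icKO, and fell by 1.64 (SE 0.0751, limma adjusted p = 8.37e-07), while Dlst, the succinyltransferase of the same complex, fell by 1.05 (SE 0.0778, limma adjusted p = 6.56e-06). Dlst to Ogdh within a library was 0.498, 0.473 and 0.476 in Ctrl and 0.727, 0.709 and 0.743 in icKO (exact two-sided permutation p = 0.1). The 2-oxoglutarate dehydrogenase-like gene Ogdhl had the lowest log2 fold change of the other TCA genes examined, from 53.7, 57.7 and 54.0 in Ctrl to 3.18, 4.32 and 3.22 in icKO (-3.92, SE 0.123, limma adjusted p = 3.36e-07). At E10.5 Ogdh had a log2 fold change of -0.01 (SE 0.0802, limma adjusted p = 0.980).

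The genes of succinyl-CoA synthetase fell together. Suclg1, the shared alpha subunit of succinyl-CoA synthetase, was at 200.3, 184 and 188 in Ctrl and at 95.7, 106 and 109 in icKO (log2 fold change -0.89, SE 0.0775, limma adjusted p = 1.57e-05). Its alternative beta subunits, the ADP-forming Sucla2 and the GDP-forming Suclg2, both had a log2 fold change of -0.96. Sucla2 was at 236, 221 and 217 in Ctrl and at 107, 115 and 125 in icKO, and Suclg2 at 26.3, 23.9 and 23.1 in Ctrl and at 11.2, 12.4 and 13.99 in icKO. Sucla2 to Suclg2 was 8.96, 9.26 and 9.39 in Ctrl and 9.56, 9.24 and 8.90 in icKO (exact two-sided permutation p = 1.0). Fh1, fumarase, fell by 1.23 (SE 0.0802, limma adjusted p = 3.40e-06).

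Mdh2, the mitochondrial malate dehydrogenase, fell the least of the TCA members. It was at 677, 695 and 662 scaled RPKM in Ctrl and at 452, 527 and 516 in icKO (log2 fold change -0.45, SE 0.0839, limma adjusted p = 0.00143). That direction turned with the scaling: the value was 0.09 as deposited (limma adjusted p = 0.284) and 0.42 after quantile normalization (limma adjusted p = 0.000508). Its cytosolic counterpart Mdh1 was at 845, 803 and 816 in Ctrl and at 304, 309 and 324 in icKO, and fell by 1.39 (SE 0.0711, limma adjusted p = 1.20e-06). The ratio of Mdh2 to Mdh1 in the deposited RPKM, which size factors leave as it is but quantile normalization does not, was 0.801, 0.866 and 0.812 in Ctrl and 1.49, 1.71 and 1.59 in icKO (exact two-sided permutation p = 0.1). Cs to Mdh2 was 0.629, 0.646 and 0.680 in Ctrl and 0.210, 0.232 and 0.223 in icKO (exact two-sided permutation p = 0.1), so the genes of the reactions that make and use oxaloacetate changed unequally. Both ratios separated the groups in the same direction at E10.5, with Mdh2 to Mdh1 at 0.758, 0.978 and 0.797 in Ctrl and at 0.988, 1.12 and 1.28 in cKO (difference 0.42, exact two-sided permutation p = 0.1) and Cs to Mdh2 at 0.738, 0.772 and 0.790 in Ctrl and at 0.711, 0.701 and 0.607 in cKO (difference -0.19, exact two-sided permutation p = 0.1). Mdh1 has exons that overlap Wdpcp on the opposite strand.

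The aminotransferases of the malate-aspartate shuttle had log2 fold changes nearer to 0 than Mdh1. Got1, the cytosolic form, was at 431, 345 and 338 in Ctrl and at 233, 227 and 225 in icKO (log2 fold change -0.69, SE 0.102, limma adjusted p = 3.31e-04), and Got2 at 207, 217 and 206 in Ctrl and at 135, 132 and 130 in icKO (-0.67, SE 0.0663, limma adjusted p = 3.25e-05). Neither passed as deposited, with values of -0.15 for Got1 (limma adjusted p = 0.185) and -0.13 for Got2 (limma adjusted p = 0.124), and after quantile normalization Got1 stood at 0.10 (limma adjusted p = 0.362) and Got2 at -0.17 (limma adjusted p = 0.0778). Got2 to Got1 was 0.480, 0.630 and 0.609 in Ctrl and 0.578, 0.580 and 0.577 in icKO, with overlap (exact two-sided permutation p = 1.0). At E10.5 the same ratio was 0.950, 0.935 and 0.963 in Ctrl and 0.864, 0.873 and 0.771 in cKO, without overlap (difference -0.19, exact two-sided permutation p = 0.1). Of the 21 ratios compared, all chosen after their values were seen, 5 separated the groups at E10.5 and 16 at 4 weeks post-TAM. The other 2 at E10.5 were Pdhb to Pdha1 (difference 0.10) and Pdk4 to Pdha1 (difference 0.48), both higher in cKO. The share of other gene pairs that separate the groups was not computed, so nothing follows from these counts.

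**Figure D2:**
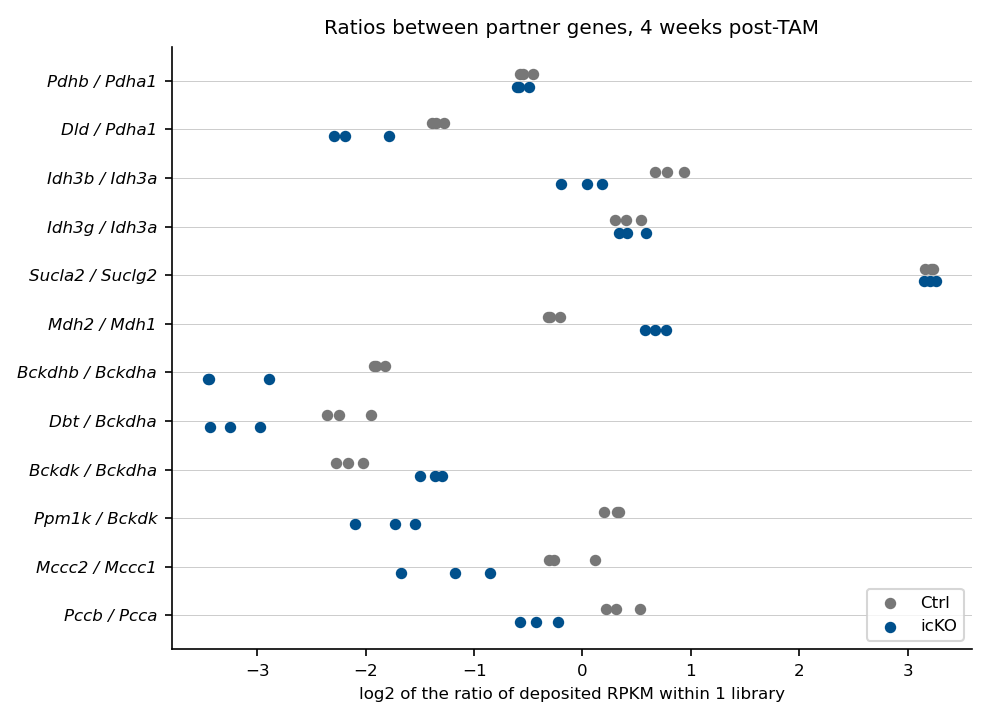
Log2 of the ratio between the deposited RPKM of partner genes within each library 4 weeks post-TAM (x axis), 1 point per sample, Ctrl in grey and icKO in blue, 3 samples per group (2 of the icKO points of Bckdhb / Bckdha coincide). Pdhb / Pdha1, Idh3g / Idh3a and Sucla2 / Suclg2 overlap between the groups, and the other 9 ratios shown do not.

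Of 12 other genes of the TCA cycle and of its replenishment, 9 fell and 2 rose 4 weeks post-TAM. Sdha, the flavoprotein subunit of succinate dehydrogenase, was at 471, 401 and 459 scaled RPKM in adult Ctrl and at 178, 196 and 196 in icKO (log2 fold change -1.22, SE 0.0876, limma adjusted p = 5.66e-06). Sdhb and Sdhd, the iron-sulphur and membrane subunits, fell by 1.69 and 1.51, and the cytosolic Aco1 and Idh1 by 1.64 and 3.03. Acly, which turns cytosolic citrate into acetyl-CoA and was named after its value was seen, was higher, from 4.33, 3.80 and 3.43 in Ctrl to 10.1, 7.34 and 7.78 in icKO (1.10, SE 0.145, limma adjusted p = 1.79e-04). Of 6 mitochondrial carriers, 4 fell by more than 1, among them the aspartate-glutamate carriers Slc25a13 (-2.19, SE 0.116, limma adjusted p = 1.40e-06) and Slc25a12 (-1.35, SE 0.0818, limma adjusted p = 2.40e-06) and the 2-oxoglutarate carrier Slc25a11 (-1.57, SE 0.0849, limma adjusted p = 1.50e-06), and the dicarboxylate carrier Slc25a10 (-1.40, SE 0.211, limma adjusted p = 3.91e-04), which was below 2 scaled RPKM on average in both groups. At E10.5, Sdhb (-0.50, limma adjusted p = 0.0452) was the only one of 11 such TCA genes tested to pass and Slc25a12 (-0.41, limma adjusted p = 0.0396) the only one of 6 carriers, and neither held without single hearts, Sdhb without any 1 of the 6 (limma adjusted p of up to 0.129) and Slc25a12 without any but cKO replicate 3 (up to 0.130). Both were named after their values were seen, and 2.6% of all genes were called lower at E10.5.

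The genes for entry into BCAA breakdown were lower in icKO, with unequal log2 fold changes within the BCKDH complex. Bckdhb, the beta subunit of the BCKDH decarboxylase (chr9:83925145-84124240), was at 31.5, 31.8 and 26.4 scaled RPKM in Ctrl and at 4.54, 5.08 and 7.001 in icKO, and fell by 2.43 (SE 0.158, limma adjusted p = 3.44e-06). Dbt, the acyltransferase core (chr3:116513070-116549981), was at 28.7, 25.1 and 19.5 in Ctrl and at 5.22, 5.13 and 6.55 in icKO, and fell by 2.09 (SE 0.155, limma adjusted p = 6.85e-06). Bckdha, the alpha subunit (chr7:25629946-25658981), was at 111, 119 and 99.7 in Ctrl and at 49.7, 55.4 and 51.7 in icKO, and fell by 1.07 (SE 0.0874, limma adjusted p = 1.09e-05). The icKO samples of all 3 subunits lay below their Ctrl samples. Exons of Bckdha overlap B3gnt8 on the opposite strand.

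Within single libraries Bckdhb to Bckdha was 0.283, 0.267 and 0.264 in Ctrl and 0.0913, 0.0917 and 0.135 in icKO, a difference of -1.38 on the log2 scale (SD 0.0537 in Ctrl and 0.327 in icKO, n = 3 each, exact two-sided permutation p = 0.1). Dbt to Bckdha was 0.258, 0.211 and 0.195 in Ctrl and 0.105, 0.0926 and 0.127 in icKO (difference -1.04, exact two-sided permutation p = 0.1). In E10.5 hearts Bckdhb to Bckdha was 1.29, 1.39 and 0.909 in Ctrl and 1.20, 0.819 and 1.26 in cKO, with overlap (exact two-sided permutation p = 0.5). Dbt to Bckdha was there 2.02, 1.84 and 1.59 in Ctrl and 2.19, 1.5 and 2.52 in cKO, also with overlap (exact two-sided permutation p = 0.5). Per length, Bckdhb thus stood near Bckdha and Dbt above it in the embryo, whereas both stood below Bckdha in adult Ctrl and farther below it in icKO.

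Bckdk, the kinase that inactivates the complex (chr7:127904082-127910221), differed little. It was at 24.7, 24.7 and 24.5 in Ctrl and at 17.6, 22.6 and 20.1 in icKO, a log2 fold change of -0.30 (SE 0.0982, limma adjusted p = 0.0245). This call did not hold without icKO replicate 1 (log2 fold change -0.20, limma adjusted p = 0.0807), without icKO replicate 3 (-0.30, limma adjusted p = 0.0540) or without Ctrl replicate 2 (-0.30, limma adjusted p = 0.0598), and as deposited Bckdk was higher in icKO (0.24, limma adjusted p = 0.0437). Ppm1k, the phosphatase that activates the complex, was at 31.1, 30.9 and 28.3 in Ctrl and at 5.31, 5.27 and 6.90 in icKO, and fell by 2.36 (SE 0.117, limma adjusted p = 1.17e-06). Ppm1k to Bckdk was 1.26, 1.25 and 1.15 in Ctrl and 0.301, 0.233 and 0.343 in icKO (difference -2.08, exact two-sided permutation p = 0.1), and Bckdk to Bckdha was 0.223, 0.207 and 0.246 in Ctrl and 0.355, 0.408 and 0.390 in icKO (difference 0.77, exact two-sided permutation p = 0.1). At E10.5 both ratios overlapped between the groups.

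Bcat2, the mitochondrial aminotransferase that opens the pathway, varied among samples. It was at 60.9, 44.6 and 36.3 in Ctrl and at 27.0, 22.2 and 34.9 in icKO, and the highest icKO sample came close to the lowest Ctrl sample (log2 fold change -0.74, SE 0.209, limma adjusted p = 0.0118). It did not pass as deposited (-0.20, limma adjusted p = 0.363). Bcat1, the cytosolic form, was at 1.94, 2.82 and 2.37 in E10.5 Ctrl and at 1.35, 1.59 and 1.59 in cKO (-0.61, limma adjusted p = 0.124) and was too low to test in adult cardiomyocytes, at no more than 0.0671 in any sample.

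**Figure D3:**
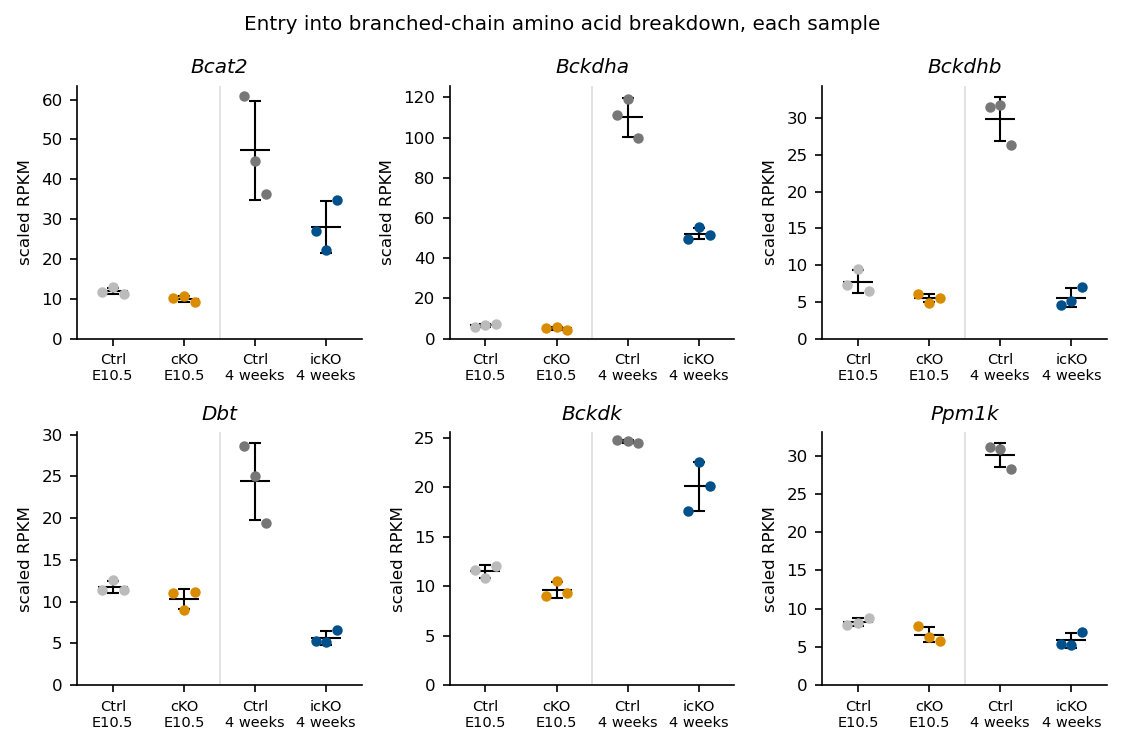
Scaled RPKM (y axis, from 0) of 5 members and of Ppm1k in every sample of the 4 groups, with the mean and SD (n = 3) in black. Each table was scaled on its own, so heights compare within a stage: in adult cardiomyocytes Bckdhb, Dbt and Ppm1k drop to 4.54 to 7.001 in icKO, while Bckdk stays at 17.6 to 22.6.

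Downstream of the complex, 9 of 10 members fell, 7 of them by more than 1 on the log2 scale, and the subunits of a carboxylase again differed. Mccc2, the beta subunit of methylcrotonyl-CoA carboxylase (chr13:99948530-100015639), had the lowest value of all members, from 26.7, 26.0 and 23.3 scaled RPKM in Ctrl to 3.17, 3.69 and 4.98 in icKO (log2 fold change -2.68, SE 0.155, limma adjusted p = 1.98e-06). Mccc1, its biotin-bearing alpha subunit, fell by 1.61 (SE 0.171, limma adjusted p = 4.87e-05). Mccc2 to Mccc1 was 1.08, 0.836 and 0.808 in Ctrl and 0.443, 0.314 and 0.552 in icKO (difference -1.08, exact two-sided permutation p = 0.1). Pccb, the beta subunit of propionyl-CoA carboxylase and a member with a GCGCATGC match, was at 34.0, 38.2 and 38.1 in Ctrl and at 5.92, 9.05 and 8.61 in icKO, and fell by 2.23 (SE 0.154, limma adjusted p = 4.46e-06). Pcca, the biotin-bearing alpha subunit, fell by 1.48 (SE 0.115, limma adjusted p = 8.64e-06), and Pccb to Pcca was 1.16, 1.24 and 1.44 in Ctrl and 0.672, 0.856 and 0.741 in icKO (difference -0.76, exact two-sided permutation p = 0.1). In both carboxylases the beta subunit thus had the lower log2 fold change. Mccc1, Pcca and Mut have exons that overlap another gene on the opposite strand.

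Among the dehydrogenases and hydrolases, Hibch was at 36.6, 33.0 and 33.4 in Ctrl and at 9.31, 10.3 and 13.5 in icKO, and fell by 1.65 (SE 0.134, limma adjusted p = 1.08e-05). Ivd, isovaleryl-CoA dehydrogenase of leucine breakdown, fell by 1.31 (SE 0.119, limma adjusted p = 1.94e-05) and Mut, methylmalonyl-CoA mutase, which delivers succinyl-CoA to the TCA cycle, by 1.47 (SE 0.147, limma adjusted p = 3.46e-05). Mut to Pcca overlapped between the groups, at 1.35, 1.19 and 1.61 in Ctrl and 1.26, 1.52 and 1.39 in icKO (exact two-sided permutation p = 1.0). At the upper end of the list, Hibadh, the 3-hydroxyisobutyrate dehydrogenase of valine breakdown, was at 106, 104 and 96.7 in Ctrl and at 49.1, 50.3 and 55.9 in icKO (log2 fold change -0.98, SE 0.0797, limma adjusted p = 1.05e-05). Aldh6a1, the methylmalonate semialdehyde dehydrogenase, was at 74.0, 72.5 and 57.9 in Ctrl and at 36.1, 36.5 and 40.4 in icKO (-0.85, SE 0.107, limma adjusted p = 1.36e-04).

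Acadsb, the short/branched-chain acyl-CoA dehydrogenase of isoleucine breakdown, was the member that did not pass. It was at 44.0, 40.0 and 37.4 in Ctrl and at 33.7, 38.5 and 36.7 in icKO, with overlapping groups (log2 fold change -0.15, SE 0.089, limma adjusted p = 0.154). As deposited its value was 0.38 and it was called higher in icKO (limma adjusted p = 0.00274).

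Of 14 other genes of BCAA breakdown and its control tested at 4 weeks post-TAM, 12 fell and 1 rose. Klf15, a transcription factor known to promote BCAA breakdown in the heart, was at 37.4, 32.4 and 24.2 scaled RPKM in Ctrl and at 10.1, 10.3 and 11.3 in icKO, and fell by 1.54 (SE 0.148, limma adjusted p = 2.75e-05). At E10.5 it was at 0.915, 1.16 and 1.90 in Ctrl and at 1.63, 1.15 and 1.73 in cKO (log2 fold change 0.21, limma adjusted p = 0.729). Echs1, Acat1 and Hadha, which BCAA and fatty acid breakdown share, fell by 1.82, 1.68 and 1.55. The exception was Slc7a5, a plasma membrane importer of large neutral amino acids including the BCAAs, which rose from 1.15, 1.01 and 0.765 in Ctrl to 16.1, 13.1 and 10.9 in icKO (log2 fold change 3.65, SE 0.184, limma adjusted p = 1.18e-06). Slc25a44, the mitochondrial BCAA carrier, also rose, from 4.95, 4.88 and 4.71 to 8.08, 8.15 and 7.37 (0.69, SE 0.0912, limma adjusted p = 1.84e-04, named after its value was seen). These 2 genes were thus higher in all 3 icKO samples than in any Ctrl sample. Slc7a5 was low in Ctrl, and it was named for the size of its change. The pair therefore does not stand for BCAA transport as a whole.

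The 4 weeks post-TAM values of the members were set beside those of other energy genes. Of 16 fatty acid oxidation genes, 16 fell (median log2 fold change -1.46), of 36 subunits of respiratory complex I, 34 fell and 0 rose (median -0.74), and of 17 glycolysis genes, 7 fell and 6 rose (median -0.15). These counts depended on the scaling. As deposited, 15 fatty acid oxidation genes were called lower and 0 higher (median -0.92), and 19 complex I subunits lower and 2 higher (median -0.21). Of the glycolysis genes, 4 were then called lower and 10 higher (median 0.39). Over all genes tested, 33.5% were called lower and 34.7% higher with scaling (median 0.04), and 18.1% and 60.6% as deposited (median 0.57). The glycolysis median thus lay 0.19 below that of all genes with scaling and 0.18 below it as deposited. With scaling, the median was -0.99 for the 20 members of the PDH complex, TCA cycle and malate-aspartate shuttle and -1.47 for the 15 BCAA members. These lists were not tested against each other.

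**Figure D4:**
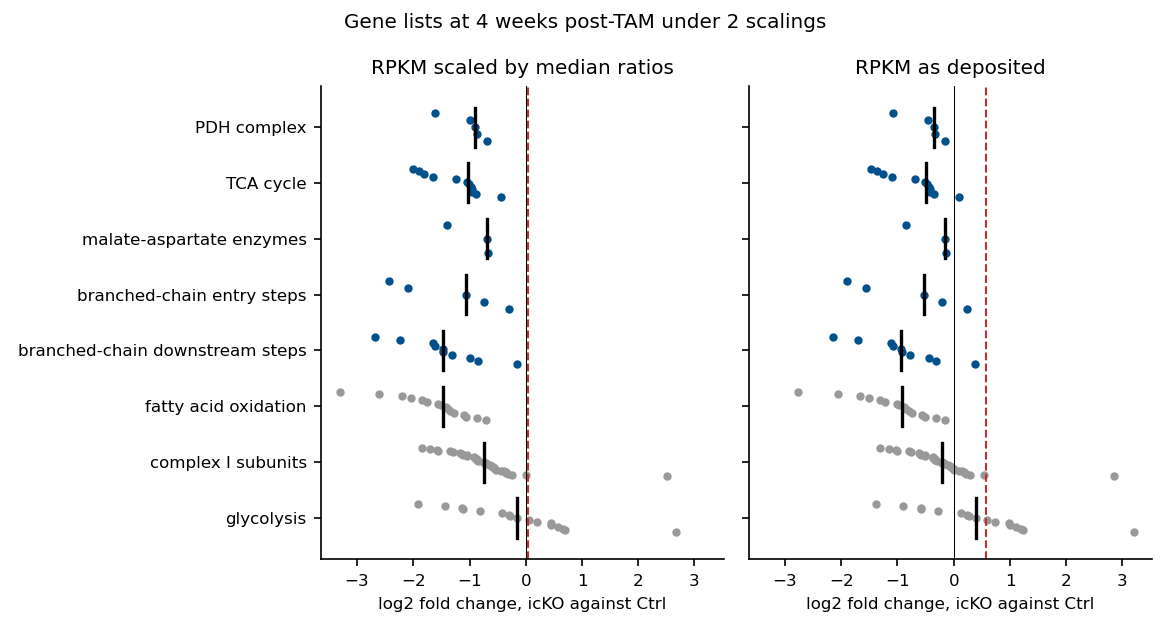
Log2 fold change of icKO against Ctrl 4 weeks post-TAM (x axis) for each gene (points) of the 5 steps (blue) and of 3 other lists (grey), with the list median (black bar) and the median of all genes tested (red dashed line), for RPKM scaled by median ratios (left) and as deposited (right). The red line moves from 0.04 to 0.57 and the medians of the 5 steps stay below it and below 0 in both.

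The effect of the knockout on most members was more negative 4 weeks post-TAM than at E10.5. In a single fit of all 12 samples, the difference between the effects was under 0 at an adjusted p under 0.05 in 30 of 35 members and over 0 in 0 (0 also at an unadjusted p under 0.05, limma), against 24.8% and 28.3% of the 8909 genes tested at both stages, with a median of -0.92 against 0.05. It was largest in Mccc2 (-2.07, SE 0.264, limma adjusted p = 3.37e-05), Bckdhb (-1.95, SE 0.238, limma adjusted p = 2.36e-05), Cs (-1.95, SE 0.131, limma adjusted p = 2.51e-07) and Pccb (-1.95, SE 0.253, limma adjusted p = 3.95e-05). It did not pass for Got2, Bcat2, Bckdk, Acadsb and Aldh6a1. Over all genes the calls numbered 2208 under 0 and 2523 over 0, and 828 and 5296 as deposited. As deposited, 13 members had a difference called under 0 and 2, Got2 (0.42) and Bckdk (0.62), one called over 0. The 2 stages also differ in Cre line, tissue preparation, age, remaining Med30 and state of the heart, which cannot be told apart here. Per the paper, E10.5 came before overt heart defects, whereas icKO hearts 4 weeks post-TAM were dilated and contracted poorly. The paper states that the adult changes likely include secondary ones.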

How the data were processed

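Mouse RNA-seq reads (12 samples, ribosomal RNA depleted) were trimmed with cutadapt 2.6, aligned with STAR 2.5.3a to GRCm38/mm10 and quantified with HOMER 4.11.1, per the study's methods and the submitters' processing notes. The authors deposited RPKM per gene in 1 table per stage, with their own DESeq2 1.12.4 fold change and FDR columns, which were not used. The strand setting of the counting was not stated, and 10 members have exons overlapping a gene on the opposite strand (GENCODE vM21). These are Pdha1, Idh3b, Mdh1, Got2, Bcat2, Bckdha, Mccc1, Aldh6a1, Pcca and Mut.

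Within each table RPKM was divided by median-ratio size factors, and log2(scaled RPKM + 0.1), which understates changes of low genes, was tested by limma 3.58.1 in R 4.3.3 (eBayes with a trend) for genes with a mean deposited RPKM above 1, with Benjamini-Hochberg adjustment over all genes tested and a threshold of 0.05. The difference between stages was a contrast in 1 fit of all 12 samples. Scripts were tested on simulated data. Nothing states that replicates were separate animals, so p-values measure the spread between these samples.

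Depth was estimated as the read total that turns low RPKM of genes with a single transcript into whole reads (66.4 to 73.0% of values within 0.1 reads of a whole number, 20% by chance). Ratios of 2 genes were taken within a library for 21 pairs at both stages, with exact permutation tests (none below 0.2 after Benjamini-Hochberg adjustment).

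The members and lists were chosen with earlier results of these data known, and the pairs after their values were seen. Values in every sample are given for Med30, members called at E10.5, the lowest and highest 3 of each step and 6 key enzymes, and of other lists for 5 set genes (1 more gene of the rule is not reported here). Other genes are named where called with a log2 fold change beyond 1, at most 6 per list. Of these, Pdp2, Ogdhl and Slc7a5 are also given in every sample, which the rule did not ask for. Pdk1, Sdhb, Slc25a12, Slc25a44 and Acly were added after their values were seen, with every sample given for Pdk1, Slc25a44 and Acly.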

Additional observations from a re-analysis of the deposited data

Results flagged for a closer look

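In 30 of the 35 members the effect of the knockout differed between E10.5 hearts and cardiomyocytes 4 weeks post-TAM by the test of the difference itself (limma, adjusted p under 0.05, on the log2 scale, 4 weeks effect minus E10.5 effect). Among the PDH genes the difference was -0.60 for Pdha1, -0.73 for Pdhb, -0.90 for Dlat, -0.66 for Pdhx and -1.25 for Dld. Among the TCA genes it was -1.95 for Cs, -1.87 for Idh2, -0.70 for Idh3a, -1.61 for Idh3b, -0.65 for Idh3g, -1.64 for Ogdh and -0.92 for Dlst. It was -0.63 for Suclg1, -0.85 for Suclg2, -0.77 for Sucla2, -0.96 for Fh1, -0.58 for Mdh2, -1.11 for Mdh1 and -0.45 for Got1. Among the BCAA genes it was -0.73 for Bckdha, -1.95 for Bckdhb, -1.90 for Dbt, -1.15 for Ivd, -1.49 for Mccc1, -2.07 for Mccc2, -0.96 for Hibadh, -1.16 for Hibch, -1.20 for Pcca, -1.95 for Pccb and -1.58 for Mut. With RPKM as deposited, 13 of these differences still passed. All groups held 3 samples. When any 1 sample was left out, the 30 differences still passed. Got2, Bcat2, Acadsb and Aldh6a1, which did not pass with all samples, each passed in at least 1 of these fits.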

How the results depend on the processing

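The fall of the members 4 weeks post-TAM kept its direction under each alternative listed in this part, with 28 to 34 of 35 members called lower (33 to 34 with 1 replicate left out). The median was -0.51 as deposited, -0.84 after quantile normalization and -0.75 when RPKM was divided by its sum outside the 20 top genes. With 1 replicate left out it ran from -1.07 to -0.99. As deposited, 2 members were called higher, with Bckdk at 0.24 and Acadsb at 0.38. Mdh2 stood there at 0.09 and Pdk1, which is no member, at 0.06, and Pdhx, Got1, Got2 and Bcat2 no longer passed. Quantile normalization called 1 member higher, Mdh2 at 0.42, put Got1 at 0.10, and lost the calls of Pdha1 and Got2. Division by the sum outside the 20 top genes lost Mdh2, Bcat2 and Bckdk. Genes called lower and higher numbered 1727 and 5765 as deposited, and 1973 were lower with a mean RPKM above 5, where fewer genes were tested.

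At E10.5 the count of 1 member became 0 without the RPKM filter, without the trend and with 1 replicate left out, 2 with a mean RPKM above 5 and 4 with sample weights, and the median was -0.36 as deposited. Of all genes, 94 were higher as deposited and 409 after division by the sum outside the 20 top genes. There were 133 lower and 167 higher without the filter, 43 and 56 without the trend, and 559 and 548 with sample weights. Leaving out 1 replicate gave 26 to 388 lower and 34 to 381 higher. The low end came without Ctrl replicate 3, and only leaving out cKO replicate 3 kept both counts within 1.5 times.

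For the difference between stages, RPKM as deposited gave 828 genes under 0 and 5296 over 0, 13 members under 0 and 2 over 0 (Got2 at 0.42 and Bckdk at 0.62) and a median of -0.26, and Pdha1 at 0.06, Idh3g at 0.01, Suclg1 at 0.03, Mdh2 at 0.08 and Got1 at 0.21. Quantile normalization gave a median of -0.66, Pdha1 at 0.10, Mdh2 at 0.11 and Got1 at 0.32. Division by the sum outside the 20 top genes gave a median of -0.68, and a mean RPKM above 5 left 1142 genes under 0. The cause of these changes was not tested beyond the scaling itself.

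Samples with the same replicate number did not deviate together: the correlations of their deviations were 0.0139, 0.101 and -0.0692 at E10.5 and 0.152, 0.0414 and 0.0449 at 4 weeks post-TAM, so the numbers were not taken as pairs. A replicate block called 170 genes lower, 170 higher and 0 members at E10.5, and changed no call of a member 4 weeks post-TAM or in the difference.

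With 3 samples per group and about 12 to 20.09 M reads per library, members under 10 RPKM rest on fewer reads than the rest.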
